A study of Mus musculus with 14 samples.

Results

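Sag, Gnat1, Gnat2, Pde6b, Opn1sw, Arr3, Rcvrn and Prph2 encode parts of the machinery with which rods and cones turn light into an electrical signal, and H3K27ac was mapped around them in the mouse retina at embryonic day (E) 14, before photoreceptors mature. The 8 genes were chosen by name as phototransduction and outer segment genes, out of 22367 protein-coding genes in GENCODE vM1 on mm9. They were chosen with earlier results of these data known. Each was examined over its gene body extended by 20 kb on either side. No gene of the 8 had an H3K27ac peak within 1 kb of a transcription start site (TSS), where 49.5% of all protein-coding genes had one. No gene of the 8 had a peak anywhere in its body either, against 50.6% of protein-coding genes. The peaks that did lie in the extended windows numbered 8, out of 13463 in the list, and the nearest protein-coding TSS to each of them belonged to another gene.

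The 14 samples at hand come from sorted progenitors, control retinas and Lhx2 conditional knockouts at E14 and after birth, and the one described here is the E14 H3K27ac ChIP-Seq. It came from the CD1 strain, with no transgene, deletion or treatment named for it, and it joins 2 replicate libraries and 1 isotype control in a single broad peak list. Its label gives retinal progenitor cells (RPCs) as the cell type, whereas the study's methods describe chromatin from whole dissected retinas, so postmitotic cells may have been included. With 1 pooled list no replicate error could be given and no test was run, so the main counts of the 8 genes stand beside the share of protein-coding genes that meet the same rule.

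The list was built from 113543038 ChIP tags and 9210563 control tags after filtering, and it holds only regions that passed the peak caller's threshold. A gene without a peak is therefore one at which no region was called at this depth, and acetylation in a small share of cells or at a low level cannot be told apart from none. The labelled tissue was checked against marker genes. All 13 RPC markers had a TSS peak, among them the long peaks of Pax6 (32865 bp), Six3 (22347 bp) and Ccnd1 (7915 bp). A TSS peak was also present at 7 of 10 ganglion cell and early neuron markers (Atoh7, Pou4f2, Isl1, Stmn2, Elavl4, Nefl and Tubb3) and at 8 of 8 housekeeping genes (Actb, Gapdh, Tbp, Polr2a, Hprt, Rplp0, Eef2 and Pgk1). Of markers of other tissues the count was 1 of 9 for retinal pigment epithelium (Pmel, whose peak was nearest to the TSS of the cell cycle kinase gene Cdk2), 1 of 7 for lens (Bfsp1), 1 of 7 for blood and vessels (Kdr) and 0 of 7 for non-ocular tissues. The TSS peaks of Six6 among the RPC markers and Tbp among the housekeeping genes were likewise nearest to other genes, 4930447C04Rik and Psmb1.

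H3K27ac, acetylation of lysine 27 of histone H3, marks the nucleosomes of active promoters and enhancers. In a mature photoreceptor, light captured by an opsin activates the G protein transducin, whose alpha subunit switches on a cGMP phosphodiesterase. The fall in cGMP closes cation channels in the plasma membrane, arrestin quenches the activated opsin, and the calcium sensor recoverin regulates opsin phosphorylation. All of this takes place in the outer segment, a stack of membranes whose rims are held by peripherin-2. Cones are among the earliest neurons to be born in the mouse retina and most rods are born around and after birth, while opsin, transducin and phosphodiesterase are made in quantity only later. The homeodomain factors OTX2 and CRX and the rod factor NRL are known activators of many of these genes.

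The sequence before the start of 3 of the genes is shown because it holds the letters TAATCC, a homeodomain site read by OTX2 and CRX, at starts where no acetylated region was called. Each run gives the 250 bases upstream of the gene start on the gene's own strand, cut from mm9 at chr1:89700005-89700254 (plus strand), chr3:107895457-107895706 (plus strand) and chr11:67508578-67508827 (plus strand). Capitals mark TAATCC, the string TGCTGA at the core of sites read by NRL, and the TATA box string TATAAA. A match on the opposite strand appears as its reverse complement, so that TAATCC is then printed as GGATTA.
Sag: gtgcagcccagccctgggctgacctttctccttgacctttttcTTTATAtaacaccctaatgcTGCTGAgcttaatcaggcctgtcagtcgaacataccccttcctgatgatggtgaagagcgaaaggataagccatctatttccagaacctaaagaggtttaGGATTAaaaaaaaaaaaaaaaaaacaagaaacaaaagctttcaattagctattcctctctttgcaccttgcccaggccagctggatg
Gnat2: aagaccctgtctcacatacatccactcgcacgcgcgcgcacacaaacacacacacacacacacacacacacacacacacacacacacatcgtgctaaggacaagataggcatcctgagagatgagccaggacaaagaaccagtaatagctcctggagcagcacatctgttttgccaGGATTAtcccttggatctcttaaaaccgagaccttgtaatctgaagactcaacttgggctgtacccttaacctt
Rcvrn: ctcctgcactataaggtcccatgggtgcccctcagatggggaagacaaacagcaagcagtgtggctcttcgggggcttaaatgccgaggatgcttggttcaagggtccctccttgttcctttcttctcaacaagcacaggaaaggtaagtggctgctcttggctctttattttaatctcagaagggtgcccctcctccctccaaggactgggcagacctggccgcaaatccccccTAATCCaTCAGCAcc
Counted from the first transcribed base as +1, TAATCC stood at -87 to -82 in Sag and at -74 to -69 in Gnat2, both on the opposite strand, and at -15 to -10 in Rcvrn. In Rcvrn a TGCTGA on the opposite strand followed at -8 to -3, without sharing a base with it.

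Searched on both strands over 300 bases (250 before and 50 from the start), TAATCC was present in 3 of the 8 genes, against 7.10% of all protein-coding gene starts. TGCTGA was present in 4 of the 8 (Sag, Gnat1, Pde6b and Rcvrn), against 17.8%, and TATAAA in 1 (Sag), against 13.4%. In Gnat1 the TGCTGA lay at -196 to -191 on the opposite strand, and in Pde6b at -26 to -21. Opn1sw, Arr3 and Prph2 held none of the 3 strings at the gene start. Alternative protein-coding starts added a TGCTGA at Opn1sw-001, a start within the gene record, at -199 to -194 on the opposite strand, and a further TAATCC at Gnat2-006, at -91 to -86 on the opposite strand. The strings were also found at neighbours that had a peak, with TAATCC at Pdzd11 and TGCTGA at Atp5k and Slc38a3. These matches are descriptions of letters in a window, and binding was not measured there.

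The opsin of the set, Opn1sw, encodes the short-wavelength pigment of cones and occupies chr6:29326671-29338468 on the minus strand (ENSMUSG00000058831.7). Its 3 protein-coding start sites include the outermost at the gene start and that of Opn1sw-001 inside the record. The nearest peak to the gene start was 7.73 kb away, and the same peak was 15685 bp from the start of Opn1sw-001. That region, chr6:29346198-29346991, was 794 bp long with a mean pileup of 13.82, a fold enrichment of 3.47 over the control and a -log10 q of 2.86. It covered the TSS of Ccdc136, a coiled-coil protein gene on the other strand, which was 36 bp from its midpoint. On the far side of Opn1sw the next peak began 27.9 kb beyond the gene end, at the TSS of Calu, which encodes the calcium-binding protein calumenin. The gene thus sat in a stretch of 47.5 kb without a peak.

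Both transducin alpha subunit genes, the rod form Gnat1 and the cone form Gnat2, were without a peak at the TSS or in the body. Gnat1 (ENSMUSG00000034837.7, chr9:107576808-107581923, minus strand) was the only gene of the 8 with more than 1 peak in its window. The nearer, chr9:107569138-107569642, lay 7.17 kb past the gene end and 12.3 kb from its TSS, and was the weakest of the 8 peaks, with a length of 505 bp, a pileup of 9.7, a fold enrichment of 3.18 and a -log10 q of 1.59. Its midpoint was 315 bp from the TSS of Slc38a3, a glutamine transporter gene. The other, chr9:107599155-107602541, was the longest of the 8 at 3387 bp, longer than 98.2% of the list, but its pileup of 10.2 exceeded only 17.7% of the list, and its fold enrichment was 3.37. It lay 17.2 kb upstream of Gnat1 in an intron of Sema3f, which encodes a secreted guidance cue. Its midpoint was 11958 bp from the Sema3f TSS and 18925 bp from that of Gnat1, so it was the only window peak outside 1 kb of any protein-coding TSS and the one whose assignment by distance was closest. Neither Gnat1 peak passed a q of 0.01.

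Gnat2 (ENSMUSG00000009108.9, chr3:107895707-107904350, plus strand) had the shortest distance from TSS to peak of the 8, 6.20 kb. The peak, chr3:107888015-107889508, was 1494 bp long, with a pileup of 14.68, a fold enrichment of 4.05 and a -log10 q of 4.14. It covered the start sites of Gm12500, 133 bp from its midpoint, and of Ampd2, an AMP deaminase gene on the opposite strand. The 4 protein-coding start sites of Gnat2 spread between 6199 and 7858 bp from that peak. Downstream no peak was met for 44.1 kb, up to the TSS of Gnai3, an inhibitory G protein alpha subunit.

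Pde6b encodes the beta subunit of the rod phosphodiesterase and spans 44007 bp at chr5:108817410-108861416 on the plus strand (ENSMUSG00000029491.7). A peak began 1.15 kb past the last base of the gene, the smallest gap of the 8, while the TSS was 45.2 kb from that peak and no other peak was met for 74.9 kb upstream. The downstream region, chr5:108862561-108863409, had the highest fold enrichment of the 8 peaks, 6.0, above 86.0% of the list, with a length of 849 bp, a pileup of 16.7 and a -log10 q of 8.07. Its midpoint was 482 bp from the TSS of Atp5k, which encodes a subunit of the mitochondrial ATP synthase and is transcribed towards Pde6b. A short retained-intron transcript near the 3′ end of Pde6b, Pde6b-003, began 3165 bp from this peak.

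The arrestins differed in distance but not in outcome. Sag, the rod arrestin gene (ENSMUSG00000056055.6, chr1:89700255-89741733, plus strand), had its TSS 46.9 kb from the nearest peak, at the TSS of the autophagy gene Atg16l1 upstream. Its window peak was downstream, chr1:89749878-89752090, 8.15 kb past the gene end, with a length of 2213 bp, the highest pileup of the 8 at 21.94 (above 91.8% of the list), a fold enrichment of 4.54 and a -log10 q of 7.42. It began 16 bp past the TSS of Dgkd, a diacylglycerol kinase gene. Arr3, the cone arrestin gene (ENSMUSG00000060890.4, chrX:97800836-97813832, plus strand), had a peak 19.9 kb from its closest TSS, chrX:97820911-97821969, of 1059 bp, with a pileup of 10.45, a fold enrichment of 4.51 and a -log10 q of 3.67. That peak covered the start sites of Pdzd11, a PDZ domain protein gene, and, on the opposite strand, of Kif4, a kinesin of mitotic chromosomes. Upstream of Arr3 no peak was met for 110.6 kb.

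Rcvrn, the recoverin gene (ENSMUSG00000020907.1, chr11:67508828-67516835, plus strand), was the only gene of the 8 with no peak in its window. The nearest region was 239 kb upstream at the TSS of Gas7 and the nearest on the other side 263 kb downstream at the TSS of the syntaxin gene Stx8, which left a stretch of 511 kb without a peak. Rcvrn lies within the record of Glp2r, a gut hormone receptor gene on the opposite strand. Prph2, the peripherin-2 gene (ENSMUSG00000023978.5, chr17:47047408-47061882, plus strand), had its only window peak 19.0 kb upstream, chr17:47026204-47028421, of 2218 bp, with a pileup of 18.25, a fold enrichment of 4.19 and a -log10 q of 5.54. It covered the start sites of A330017A19Rik, 42 bp from its midpoint, and of Tbcc, a tubulin-folding cofactor gene. Downstream of Prph2 the next peak was 84.4 kb away, with Ubr2, a ubiquitin ligase gene, as its likely gene.

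**Figure D1:**
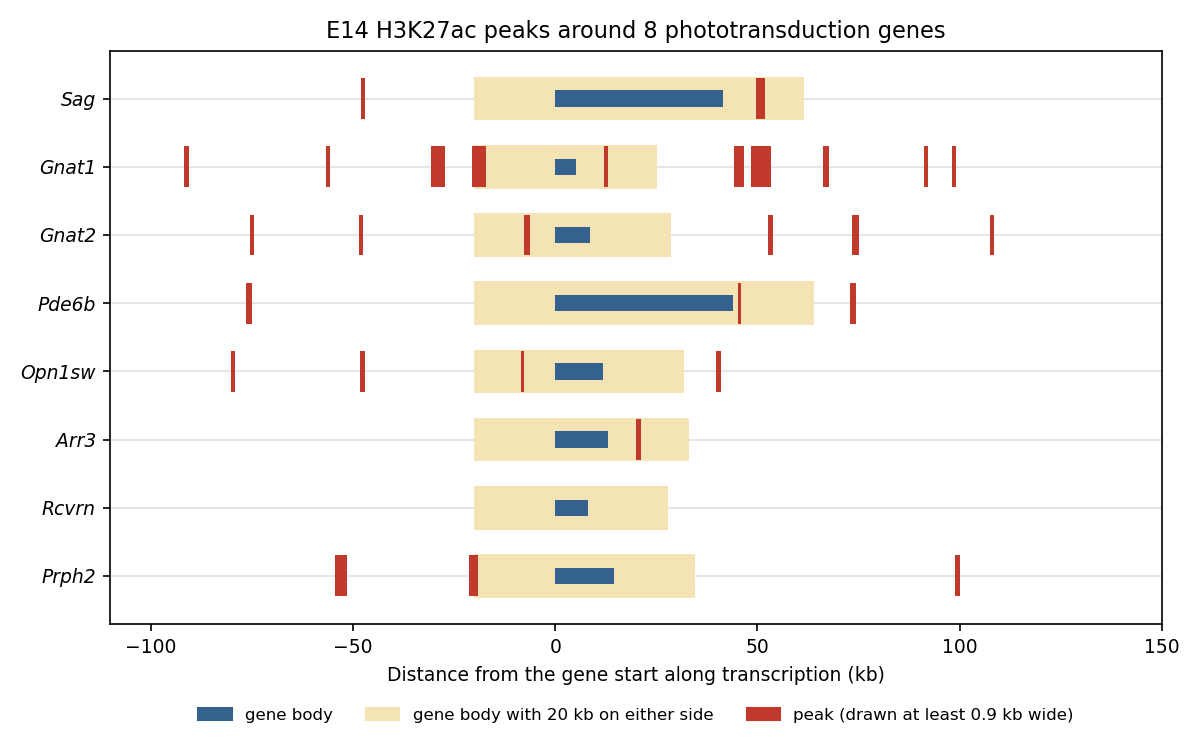
H3K27ac peaks within 100 kb of each gene, plotted by distance in kb from the gene start along the direction of transcription, with the gene body in blue, the body extended by 20 kb on either side in yellow and each peak in red. No red bar meets a blue one, 7 of the 8 yellow windows hold a peak, and Rcvrn has none over the whole row.

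A window peak was thus present for 7 of the 8 genes, against 63.5% of all protein-coding genes and 27.7% of the protein-coding genes that had no TSS peak. This turned with the flank, since within 5 kb of the body it was 1 of the 8 (Pde6b) against 55% of protein-coding genes. Of the 8 window peaks, 7 had the TSS of another protein-coding gene within 1 kb, where 75.6% of all peaks had a protein-coding TSS that near. Such a TSS was covered by 4 of the 8, against 65.1% of all peaks, and 3 of the 8 had the start sites of a pair of genes within 1 kb, where 9.23% of all peaks had those of at least 2 genes. Of the 14 other protein-coding genes with a TSS inside the windows, 10 had a peak within 1 kb of one of their start sites (71.4%), against 49.5% of protein-coding genes. In 9 of them that start was itself inside a window: Dgkd, Slc38a3, Ampd2, Gm12500, Atp5k, Ccdc136, Pdzd11, Kif4 and Tbcc. Calu had its peak at a start outside the Opn1sw window, and 5830472F04Rik, Gm10419, Mfsd7a and P2ry4 had none. The start of A330017A19Rik lay just outside the Prph2 window. For 0 of the 7 genes with a window peak was the gene itself the likely gene of one, against 19.0% of the protein-coding genes that had a window peak but no TSS peak. Widening the search to 100 kb on either side brought in 29 peaks, and 0 of them had one of the 8 genes as the nearest protein-coding TSS. The matching share for all protein-coding genes was not computed at this flank, so this 0 is a description only.

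As regions, the 8 window peaks spanned lengths of 505 to 3387 bp with a median of 1277 bp, where the median of the list was 1015 bp. Their pileups ran from 9.7 to 21.94 with a median of 14.25, beside 15.06 for the list. Their fold enrichments ran from 3.18 to 6.0 with a median of 4.12, beside 4.46. In length 5 of the 8 exceeded the median of the list, in pileup 3 and in fold enrichment 3.

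From TSS to nearest peak the order was Gnat2 (6.20 kb), Opn1sw (7.73 kb), Gnat1 (12.3 kb), Prph2 (19.0 kb), Arr3 (19.9 kb), Pde6b (45.2 kb), Sag (46.9 kb) and Rcvrn (239 kb). Opn1sw stood ahead of Gnat1 only through its outermost start, as Opn1sw-001 and Opn1sw-002 began 15685 and 15767 bp from the peak. The cone genes Gnat2, Opn1sw and Arr3 ran from 6.20 to 19.9 kb and the rod genes Gnat1, Pde6b and Sag from 12.3 to 46.9 kb, so that their ranges overlapped. The order rests in part on weak peaks, since among peaks with a fold enrichment of 4 or more and a q of 0.001 or less Gnat1 was 27.2 kb and Opn1sw 31.7 kb from the nearest, both behind Prph2 and Arr3, and the median of the 8 was 29445.5 bp. The median of the 8 was 19456 bp, against 1766 bp for all protein-coding genes, of which 42.9% had a TSS inside a peak, and 75.4 kb for the protein-coding genes with no TSS peak. The share of protein-coding genes at least as far from a peak ran from 47.3% for Gnat2 to 31.0% for Sag and 12.5% for Rcvrn. Rcvrn was thus farther from a peak than the 75.4 kb median of the genes with no TSS peak, and the other 7 were nearer than that median.

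**Figure D2:**
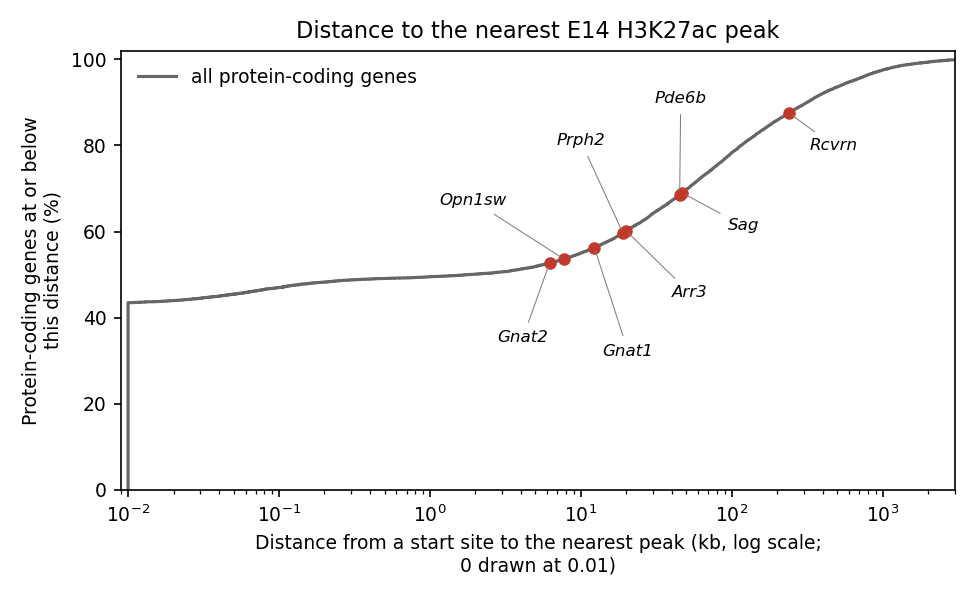
Distance in kb, on a log scale, from the closest protein-coding TSS of a gene to the nearest peak (horizontal axis) against the percentage of protein-coding genes at or below that distance (vertical axis), with the 8 genes as red points on the grey curve. All 8 points lie beyond the flat stretch near 1 kb, from Gnat2 at 6.20 kb to Rcvrn at 239 kb.

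The base composition of the gene starts was compared, as a property that the choice of genes did not use. The CpG ratio, the number of CG dinucleotides over the number expected from the C and G content, was taken over 500 bases on either side of each gene start. It was 0.115 for Arr3, 0.194 for Gnat1, 0.233 for Sag, 0.297 for Opn1sw, 0.305 for Pde6b, 0.342 for Prph2, 0.377 for Gnat2 and 0.447 for Rcvrn. At the alternative protein-coding starts of Gnat2, Opn1sw and Arr3 it ran from 0.0974 at a start of Arr3 to 0.401 at one of Gnat2, with 0.113 at Gnat2-004 and 0.179 at Opn1sw-001. At the gene starts all 8 fell below 0.6, a common lower bound for CpG islands, as did 54.4% of all protein-coding genes. Among protein-coding genes a peak was called at the gene start for 15.2% of those below 0.6 and for 85.9% of those at or above it. The median ratio was 0.762 for genes with a peak at the start (interquartile range 0.651 to 0.862) and 0.243 for those without (0.141 to 0.426), and the median of the 8 genes was 0.301. Of the 8, 6 lay within the interquartile range of genes without a peak, with Arr3 below it and Rcvrn above it. Of the 9 neighbours with a peak at a start inside the windows, Gm12500 had a ratio of 0.406, within the range of the 8 genes, and the others had higher ratios, from 0.543 for Ccdc136, 0.547 for Pdzd11 and 0.552 for Slc38a3 through 0.615 for Atp5k and 0.636 for Ampd2 to 0.728 for Tbcc, 0.740 for Kif4 and 0.876 for Dgkd. Apart from Gm12500, these 9 neighbours and the 8 genes did not overlap in this ratio. The 9 were taken because they had a peak, and neighbours without one at a start inside the windows were not compared. Whether base composition had a part in the missing peaks was not tested.

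**Figure D3:**
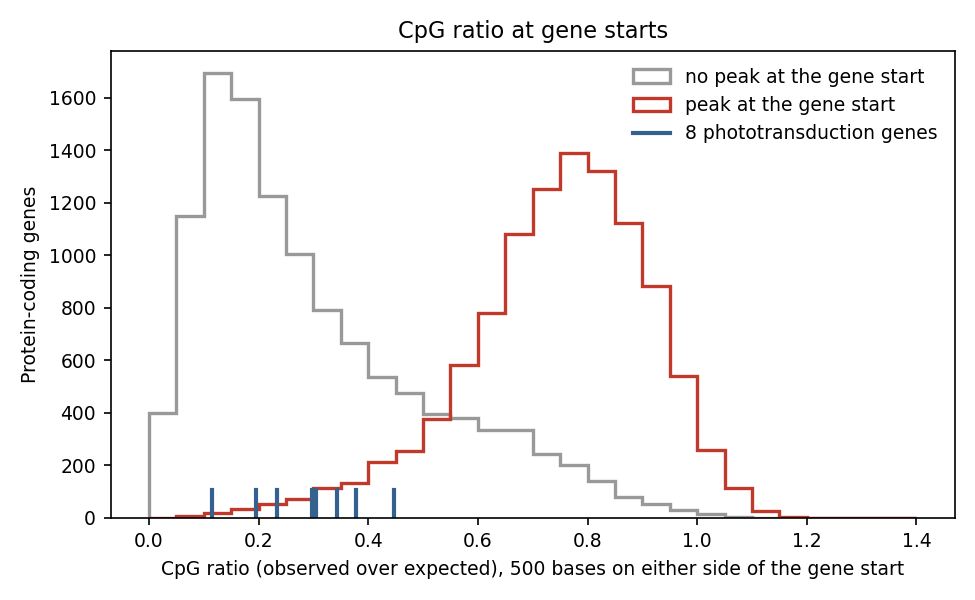
Histogram of the CpG ratio at gene starts, with the number of protein-coding genes on the vertical axis, for genes with a peak at the start (red) and without (grey), and the 8 genes as blue ticks. The blue ticks, from 0.115 to 0.447, fall under the grey histogram and to the left of the bulk of the red one.

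The contrast can be read from the letters at Prph2 and at Tbcc, the acetylated gene in its window. The runs give the 250 bases upstream of each start on mm9, chr17:47047158-47047407 (plus strand) and chr17:47027320-47027569 (plus strand), with CG dinucleotides in capitals.
Prph2: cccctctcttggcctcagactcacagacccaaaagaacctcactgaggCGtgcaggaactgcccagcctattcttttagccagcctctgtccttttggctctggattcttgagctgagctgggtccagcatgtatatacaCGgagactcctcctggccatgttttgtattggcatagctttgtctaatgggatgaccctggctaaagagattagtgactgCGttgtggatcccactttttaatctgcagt
Tbcc: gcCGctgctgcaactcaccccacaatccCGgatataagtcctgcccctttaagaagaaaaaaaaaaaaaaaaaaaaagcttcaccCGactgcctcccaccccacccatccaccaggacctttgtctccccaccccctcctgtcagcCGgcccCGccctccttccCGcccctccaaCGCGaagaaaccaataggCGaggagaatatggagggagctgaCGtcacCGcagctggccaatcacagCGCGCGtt
Prph2 had 3 CG dinucleotides in this stretch and Tbcc 14. Over the same 250 bases the other genes of the set had 0 (Opn1sw and Arr3), 2 (Sag), 3 (Gnat1, Pde6b and Rcvrn) or 7 (Gnat2, of which most lay in a short CG repeat). The acetylated neighbours had up to 21, at Dgkd, but Pdzd11 had 6 and Kif4 had 0, so that the upstream letters alone did not separate the groups.

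The remaining genes of the cascade were taken as a list of 25. A TSS peak was present for 2 of them, against 49.5% of protein-coding genes. Gnb1, the beta subunit of rod transducin and of G proteins in many other cells, had its own peak of 2025 bp with a pileup of 25.79 and a fold enrichment of 5.88. Rgs9bp, which anchors the GTPase-accelerating protein RGS9, counted through a peak nearest to the TSS of Ankrd27, 293 bp from its midpoint. Gnb5, the partner of RGS9, had a peak in its body 2.64 kb from its TSS. A peak in the window but none at the TSS was found for Gnb5 and 8 further genes: Gngt1, Gngt2 and Gnb3 (transducin gamma and beta subunits), Pde6a, Pde6c and Pde6g (phosphodiesterase subunits), Guca1b (a guanylate cyclase activator) and Slc24a1 (the rod sodium, calcium and potassium exchanger). Their nearest peaks had Gng11, Phospho1, Cdca3, Slc26a2, Rbp4, Ccdc137, Mrps10 and 2010321M09Rik, in that order, as likely genes. A CpG ratio below 0.6 was found for 21 of the 25, against 54.4% of protein-coding genes, and 0 of those 21 had a peak at the gene start, against 15.2% of protein-coding genes below 0.6. Low ratios were also frequent in the marker lists of other tissues, at 8 of 9 retinal pigment epithelium, 6 of 7 lens, 6 of 7 blood and vessel and 7 of 7 non-ocular markers, of which 1, 0, 0 and 0 had a peak at the gene start. Some genes with a low ratio did have one, at 3 of 3 RPC markers below 0.6, 1 of 1 housekeeping gene, 2 of 13 outer segment genes, 1 of 5 photoreceptor transcription factors and 1 of 4 ganglion cell and early neuron markers.

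Outer segment and visual cycle genes gave 3 of 14 with a TSS peak, against the same 49.5%. Unc119, a carrier of lipid-modified transducin, had a peak nearest to its own TSS. The peaks at Rom1, the partner of peripherin-2, and at Prom1, a protein of membrane protrusions, covered those genes' start sites too, but their midpoints were nearest to the start sites of Eml3 and Gm16401. Impg1, a gene of the matrix between photoreceptors, had a peak in its body 159 kb from its TSS, and Rdh12, Tulp1, Aipl1 and Fscn2 had peaks in the window only. Of the photoreceptor transcription factors, 4 of 10 had a TSS peak, near the 49.5% of all protein-coding genes: Otx2, Rorb, Thrb and Mef2d. Neurod1 had a peak in its body, 1.57 kb from the TSS, Nrl had one in its window only, with Pck2 as likely gene, and Crx was 41.6 kb from the nearest peak. The medians of the distance from TSS to peak were 41.8 kb for the other phototransduction genes, 26.8 kb for the outer segment genes and 8.40 kb for the regulators, and none of these list counts was tested.

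**Figure D4:**
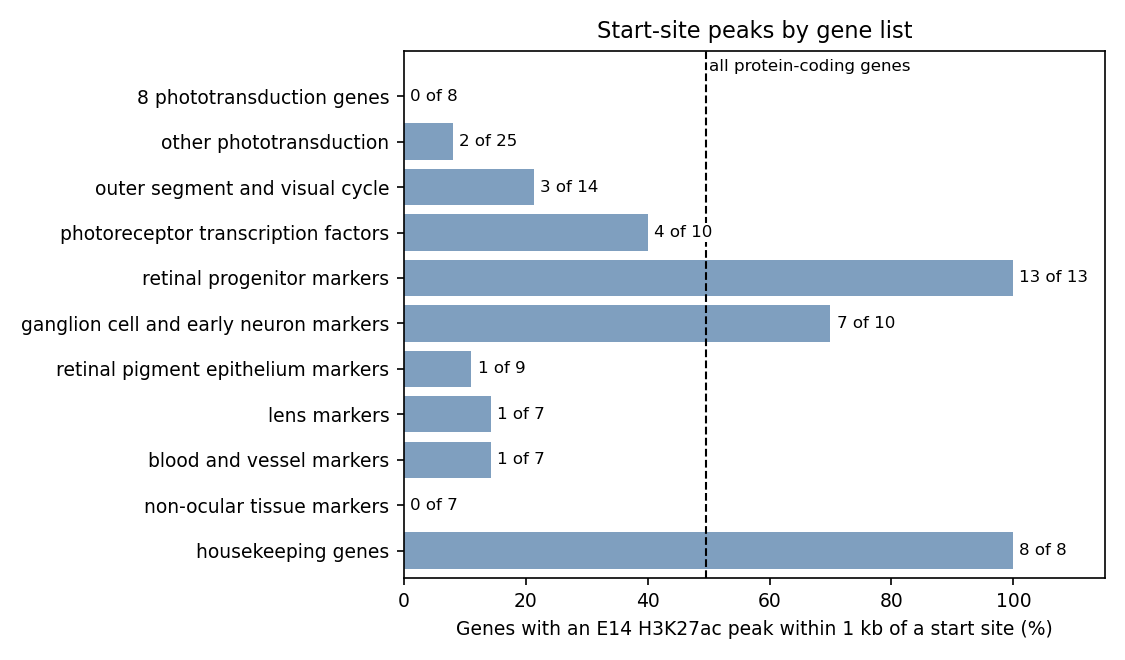
Percentage of genes with a peak within 1 kb of a protein-coding TSS in each list (bars from 0, with counts beside them), the dashed line giving 49.5% for all protein-coding genes. The 8 phototransduction genes stand at 0 of 8 and the RPC markers at 13 of 13.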

How the data were processed

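H3K27ac was measured by ChIP-Seq in E14 retina. The authors aligned reads to mm9 with Bowtie2, kept uniquely mapped reads, joined 2 replicate libraries and, per the file headers, called broad regions with MACS 2.1.0.20140616 against 1 isotype control (broad cutoff 0.1, q cutoff 0.05, at most 1 tag per position). The deposited pileup is a signal, which the authors' MACS run averaged along a region once ChIP tags had been scaled to the control library. The deposited fold enrichment is the ratio of that pileup to local background. The deposited -log10 p and -log10 q values are averages over the region, and the authors' file also gives each region's length in bp. The pooled list has no replicates, so precision between animals is unknown.

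Positions are 1-based on mm9, and 0 peaks lay past the end of any of 21 chromosomes. Genes came from GENCODE vM1. A TSS peak overlaps (at least 1 bp) 1000 bp on either side of the TSS of a protein-coding transcript, and a window peak overlaps the gene body extended by 20000 bp. The likely gene is the protein-coding gene whose TSS is nearest to the peak midpoint, which is a distance and not a target. Python 3.11.15, numpy 2.4.6 and pandas 2.3.3 were used, and the overlap code was checked on simulated data (5 of 5 planted sets recovered). Named genes were the 8 members, every likely gene of their window or nearest peaks, listed genes with a TSS peak (at most 12 per list, otherwise the 3 with the longest), and photoreceptor genes with a window peak only. Neighbours and Crx were also named after their values were seen. The values of some listed genes are not reported here. The members and lists were chosen with earlier results of these data known. Alternatives changed the TSS window, the start sites used, the flank, the peak threshold (fold enrichment of at least 4 with q of at most 0.001, or q of at most 0.01) and the definition of overlap. The study's other samples were not analysed here, and 1 sample whose labels disagree on its age was put in no group.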

Additional observations from a re-analysis of the deposited data

How the results depend on the processing

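The count of 0 of 8 genes with a TSS peak held under each of the 8 alternatives tried. The share of protein-coding genes ran from 37.6% to 51.1%. Only the wider windows and the start sites of every transcript could have raised the count for the 8, since the other alternatives can only lower it. For peaks in the body the count was 0 of 8 under each of the 3 alternatives tried. Those 3 can only remove peaks or narrow the overlap, so that outcome was fixed in advance. No alternative gave one of the 8 genes as the likely gene of a window peak. With a flank of 5000 bp, 1 gene of the 8 had a window peak, from 1 region, against 55% of protein-coding genes, so the count fell below the share of all genes where at 20000 bp it stood above it. Flanks of 50000 and 100000 bp held 17 and 29 regions, still at 7 genes, against 72.1% and 79.7%. Under the strict threshold (fold enrichment 4, q 0.001) 5 peaks were in the windows, and the median distance from TSS to peak was then 29445.5 bp, because the nearest peaks of Gnat1 (27183 bp) and Opn1sw (31708 bp) became other regions. Using the 5′ end of each gene alone gave a median of 19531 bp, through Arr3 (20075 bp). Replicates could not be left out and no paired analysis was possible because the libraries were pooled before peaks were called. Depth limits the absences: a region below the caller's threshold is not listed, and its level is unknown.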

Other observations

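Relatives of the phototransduction proteins that act outside photoreceptors were listed after the peaks of Gnai2 and Gnai3, near Gnat1 and Gnat2, had been seen, so their counts support nothing on their own. A TSS peak was present at 8 of the 11, against 49.5% of protein-coding genes: the inhibitory G protein alpha subunits Gnai1, Gnai2 and Gnai3, the beta-arrestins Arrb1 and Arrb2, and the neuronal calcium sensors Hpcal1, Ncs1 and Ncald. The calcium sensors Hpca, Hpcal4 and Vsnl1 had none, with nearest peaks at 14.7, 43.2 and 19.4 kb. The Gnai2 peak was 2520 bp long with a pileup of 16.1 and a fold enrichment of 4.92, and the Gnai3 peak was 1036 bp long with a pileup of 20.93 and a fold enrichment of 3.24. At Gnat1 and Gnat2, on the same chromosomes, no region was called at the TSS.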
